A study of Mus musculus with 9 samples.

Results

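The genes that carry proteins into the endoplasmic reticulum (ER) and ship them to the Golgi were followed across 9 RNA libraries from neuronal nuclei of mouse hippocampus. They were chosen by symbol, as the signal recognition particle and its receptor, the translocon, signal peptidase, oligosaccharyltransferase, the Alg enzymes, the COPII and COPI coats, and the cargo receptors of the early secretory pathway. Among the 48709 genes counted, 84 matched by name, and 79 of these were among the 17361 genes with enough counts to be tested. The 5 that were not tested were Kdelr3, Tram2, Tmed6 and Sec31b, each below 1 CPM, a count scaled by library size, in every mouse, and Tmed11, with 0 counts in every mouse.

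The study asked whether long-term caffeine alters transcription in neurons of the Tg4-42 mouse, a model of Alzheimer's disease. Vehicle-treated wild-type (WT) C57BL/6J mice, vehicle-treated Tg4-42 mice and caffeine-treated Tg4-42 mice gave 3 libraries each, and all mice were 6 months old. Caffeine was given in the drinking water at 300 mg/l for 4 months from an age of 2 months, and vehicle was tap water. The sample labels name a treatment only for the caffeine group, so that the word vehicle rests on the study's design. Tg4-42 mice carry human Aβ4-42 behind the murine Thy1 promoter, which is active in neurons, and were homozygous on the same C57BL/6J background. The peptide is fused to the signal peptide of murine thyrotropin-releasing hormone, a leader that directs proteins into the ER. No caffeine-treated WT group was among the libraries.

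Proteins destined for secretion or for membranes carry a hydrophobic signal that the signal recognition particle binds during translation, and its receptor docks the ribosome at the Sec61 channel of the ER. Signal peptidase then removes the signal, and oligosaccharyltransferase adds a sugar tree that the Alg enzymes have built on the lipid dolichol. COPII coats, loaded by the GTPase Sar1, bud vesicles from the ER, COPI coats return proteins from the Golgi, and p24 (Tmed), lectin (Lman) and KDEL receptors select the cargo. In neurons this route supplies receptors, ion channels and synaptic proteins, and its genes are among the targets of the unfolded protein response and of the CREB3 family of transcription factors.

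The promoters of the genes on which the results turn are shown first, so that motifs tied to stress of the ER and the Golgi can be read in them. The 250 bases before the RefSeq start (GRCm38.p6) are printed on the strand of the gene for the 5 genes with the smallest p in the caffeine comparison. Tmed3 and Sec24d were added after the search, as examples with a motif. Capitals mark any match, in either orientation, to the motifs described next.
Srprb (chr9:103202066-103202315, minus strand): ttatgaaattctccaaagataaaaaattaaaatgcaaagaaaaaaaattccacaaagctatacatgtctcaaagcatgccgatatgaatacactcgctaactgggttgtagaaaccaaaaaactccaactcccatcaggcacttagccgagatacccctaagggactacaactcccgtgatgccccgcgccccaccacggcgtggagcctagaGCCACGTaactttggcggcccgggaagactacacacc
Rpn2 (chr2:157278848-157279097, plus strand): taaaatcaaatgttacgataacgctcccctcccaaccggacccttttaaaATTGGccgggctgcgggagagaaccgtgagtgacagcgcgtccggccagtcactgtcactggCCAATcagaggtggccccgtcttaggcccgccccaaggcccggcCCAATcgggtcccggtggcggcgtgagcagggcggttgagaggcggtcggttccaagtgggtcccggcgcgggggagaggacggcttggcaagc
Rpn1 (chr6:88084223-88084472, plus strand): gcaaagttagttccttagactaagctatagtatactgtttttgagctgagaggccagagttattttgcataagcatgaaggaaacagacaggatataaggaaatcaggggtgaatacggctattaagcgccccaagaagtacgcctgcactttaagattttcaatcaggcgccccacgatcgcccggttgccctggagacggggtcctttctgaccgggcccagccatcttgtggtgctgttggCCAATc
Stt3a (chr9:36767623-36767872, minus strand): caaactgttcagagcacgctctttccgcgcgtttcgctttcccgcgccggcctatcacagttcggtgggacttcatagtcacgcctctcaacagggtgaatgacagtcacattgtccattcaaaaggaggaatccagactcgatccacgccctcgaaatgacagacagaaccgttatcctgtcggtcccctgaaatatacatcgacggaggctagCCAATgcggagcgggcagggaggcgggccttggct
Copb1 (chr7:114254681-114254930, minus strand): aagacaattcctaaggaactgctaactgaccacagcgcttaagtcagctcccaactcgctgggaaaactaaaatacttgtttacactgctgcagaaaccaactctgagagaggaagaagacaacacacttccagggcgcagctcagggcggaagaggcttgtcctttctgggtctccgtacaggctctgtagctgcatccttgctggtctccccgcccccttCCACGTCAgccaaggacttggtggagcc
Tmed3 (chr9:89705044-89705293, minus strand): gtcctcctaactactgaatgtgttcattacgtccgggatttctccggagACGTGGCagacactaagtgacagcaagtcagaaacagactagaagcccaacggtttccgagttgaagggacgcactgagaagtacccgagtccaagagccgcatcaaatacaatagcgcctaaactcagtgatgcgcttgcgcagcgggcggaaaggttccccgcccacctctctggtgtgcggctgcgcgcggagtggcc
Sec24d (chr3:123267246-123267495, plus strand): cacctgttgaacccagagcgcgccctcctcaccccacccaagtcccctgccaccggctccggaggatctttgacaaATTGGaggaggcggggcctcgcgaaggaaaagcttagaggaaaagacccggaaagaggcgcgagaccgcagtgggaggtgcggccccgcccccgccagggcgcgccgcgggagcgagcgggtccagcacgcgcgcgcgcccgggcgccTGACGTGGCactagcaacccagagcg

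The search covered both strands of 300-base windows that also held the 50 bases after the start, for the 70 of 84 genes with a RefSeq entry and for all 19582 promoters of the table. The most frequent of the stress-related motifs was ACGTGGC, the core of the Golgi apparatus stress response element (GASE). It lay in 19 of 70 secretory promoters, or 27.1%, against 2.85% of all promoters. In Srprb it was read in reverse at 37 to 31 bases before the start, in Tmed3 forward at 201 to 195, and in Sec24d forward at 24 to 18. TGACGTGG, the unfolded protein response element (UPRE), was found in 6 promoters, or 8.57%, against 0.669%, and those were Copb1, Copb2, Kdelr3, Sec16b, Sec23a and Sec24d. The core and the UPRE share the letters ACGTGG, and in Sec24d they overlap. In Copb1 the UPRE was read in reverse at 28 to 21 bases before the start.

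The ER stress response element (ERSE), read as CCAAT, 9 bases of any kind and CCACG, was matched in 1 secretory promoter, that of Alg12, and in 0.148% of all promoters. Its second form, ATTGG, 1 base of any kind and CCACG, was matched in none of the 70, against 0.0409% of all. The cyclic AMP response element TGACGTCA was held by 2.86% of the secretory promoters, those of Alg13 and Cope, and by 2.28% of all. CCAAT alone, which is also part of the ERSE, was held by 45.7% against 38.3%. Rpn2, Rpn1 and Stt3a had CCAAT as their only match in the printed bases, at 35 to 31 bases before the start in Stt3a and at 6 to 2 in Rpn1. These are matches of letters, and binding was not measured.

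**Figure D1:**
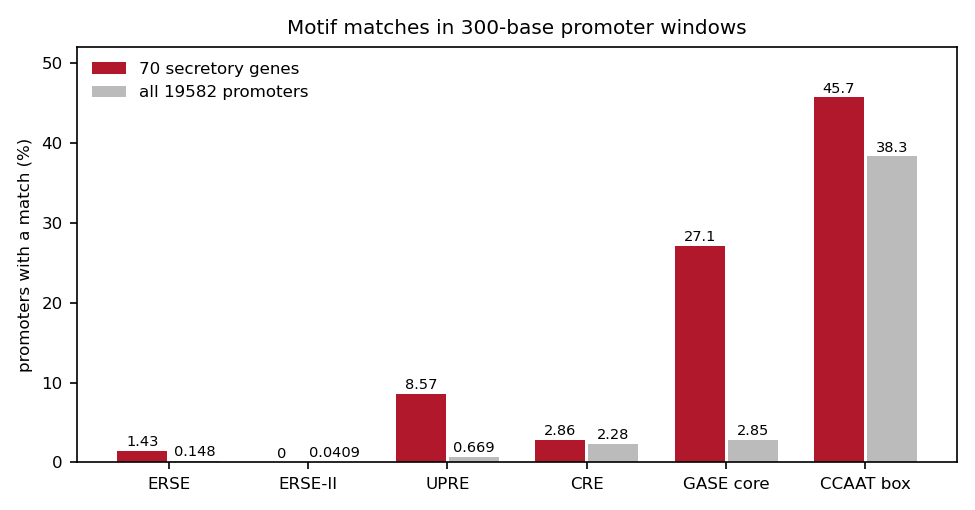
Share of promoters with at least 1 match to each motif (%), in 300-base windows on both strands, for the 70 secretory genes with a RefSeq promoter (red) and for all 19582 promoters (grey). The GASE core stands at 27.1% against 2.85% and the UPRE at 8.57% against 0.669%, while CRE and CCAAT box are closer to the share of all promoters.

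The libraries held between 9342945 and 16376922 exon counts, of which the 84 genes took 0.854 to 1.04%. The neuronal markers Rbfox3, which encodes the sorted NeuN protein, and Snap25 were at 89.3 to 148 CPM and at 2212 to 3510 CPM over the 9 mice, and the 10 markers of microglia summed to 50.4 to 92.5 CPM. Thy1, whose promoter drives the transgene, was at 82.1 to 88.8 CPM in WT mice and at 461 to 670 CPM in both Tg4-42 groups. Reads of replicates 1 and 2 of each group came from lane 6 of the sequencer and those of replicate 3 from lane 7, as the library names give it. The series describes the cells as neurons of the CA regions, while the study states that the whole hippocampus was analysed. The granule cell marker Prox1 was present at 47.9 to 183 CPM.

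Most of the secretory genes were well expressed in neuronal nuclei. In vehicle-treated WT mice the median of the 79 tested genes was 94.3 TPM, which scales counts by exon length and library size, against 20.9 TPM over all tested genes with a length. The 5 genes chosen from oligosaccharyltransferase had the highest median of the 8 roles at 280.3 TPM, which leaves out 7 subunits with other names. Signal peptidase followed at 220.4, COPI at 137 and the translocon at 118 TPM. SRP and its receptor stood at 84.5 TPM, cargo receptors at 77.3, the Alg enzymes at 55.8 and COPII at 54.1 TPM.

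At the top of the order were Tmed4, a p24 cargo receptor, with 564 ± 33.1 TPM (SD, n = 3), and Sar1b, a GTPase that starts the COPII coat, with 560.4 ± 71.6 TPM, 2 levels that do not differ beyond their spread. Ddost, a subunit of oligosaccharyltransferase, followed with 500.3 ± 97.8 TPM, Ergic3 with 472 ± 34 and Tmed9 with 440 ± 50.2 TPM, and these neighbours also overlapped within their SD. Within the roles the highest genes were Srp14 (343 TPM), Ssr2 of the translocon-associated complex (393), the signal peptidase subunit Spcs1 (371), the mannosyltransferase Alg2 (426) and Cope (406).

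At the low end, Sec16b, a scaffold of ER exit sites, was at 1.90 TPM and Copz2, the second zeta chain of COPI, at 3.12 TPM. Alg13 at 6.61 TPM and Sec22c at 11.4 TPM were the lowest of their roles. Srp9 at 46.5, Sec61g at 20.1, Sec11a at 104 and Stt3a at 53.5 TPM were the lowest of the remaining roles.

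**Figure D2:**
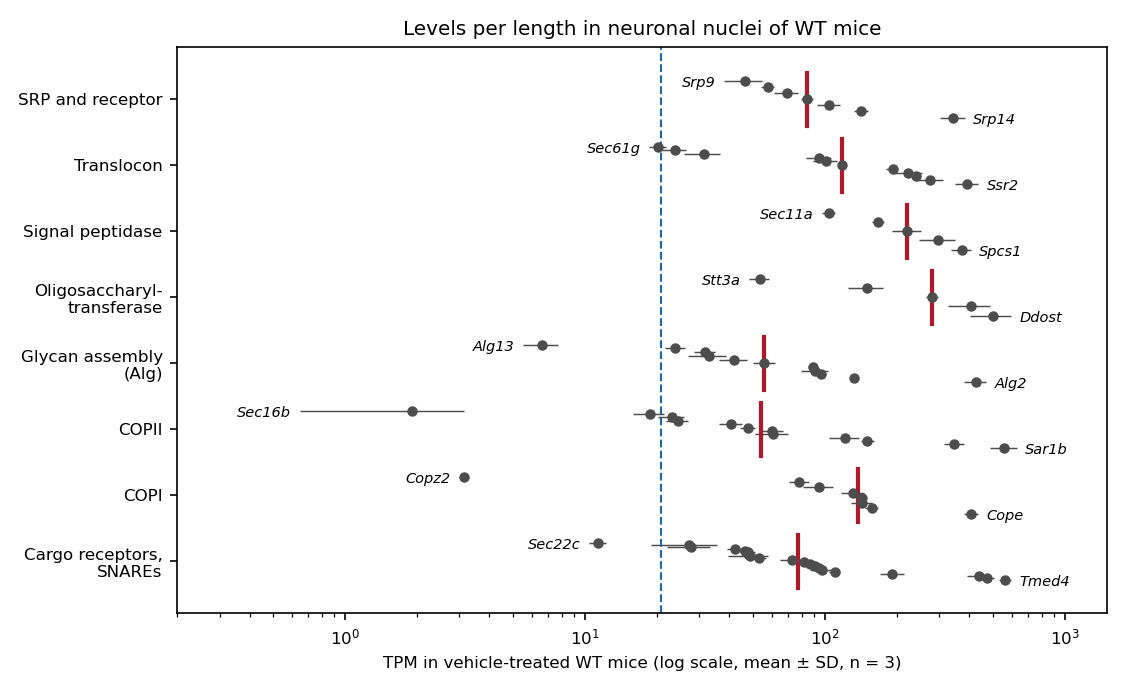
Level per exon length of each of the 79 tested genes in vehicle-treated WT mice (TPM, log axis), grouped by role. Points are means and bars the SD of 3 mice, red lines are the medians of the roles, and the dashed line is the median of all tested genes (20.9 TPM). Most genes lie to the right of it, and Sec16b and Copz2 lie farthest to the left.

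For each of 14 listed pairs of related genes that serve the same pathway step, one had the higher level per length in all 9 mice. Not every possible pair was listed. Sec24a and Sec24d were at 23.9 and 24.1 TPM in vehicle-treated Tg4-42 replicate 1, while Sec24a was the higher in the other mice. The ratio of TPM of Sec61a1 to Sec61a2, the alternative pore subunits of the channel, was 0.276 to 0.412. Stt3b, a catalytic subunit that adds sugars after translocation, was 2.44 to 3.94 times as high as Stt3a, which acts during translocation. Sec24c was 2.66 to 3.84 times as high as Sec24d, Copg2 stood at 0.517 to 0.688 of Copg1, and Sar1a at 0.506 to 0.670 of Sar1b. The ratios rest on exon counts, and 35.8% of the 50-base stretches of Sec61a2 also occur in the overlapping gene Nudt5.

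Of 14 such pairs 1 had caffeine-treated mice outside the range of the vehicle-treated Tg4-42 mice. The ratio of Sec23a to Sec23b, the inner COPII coat, was 2.12, 2.16 and 2.15 with caffeine and 1.79, 1.68 and 1.95 with vehicle. In WT mice it was 2.03, 2.09 and 1.90, which overlapped the vehicle-treated Tg4-42 mice and lay below the caffeine-treated mice. Between the vehicle-treated groups 2 pairs did not overlap: Sec24b to Sec24a was 1.45 to 1.67 in Tg4-42 and 1.69 to 1.83 in WT mice, and Lman2 to Lman1 was 1.65 to 1.76 and 1.46 to 1.58. Over all tested single genes, 12.6% had all 3 caffeine-treated mice below and 10.4% above the vehicle-treated Tg4-42 mice. For vehicle-treated Tg4-42 against WT mice these shares were 3.16% and 3.57%. The share for ratios of other gene pairs was not taken, so that these counts of pairs show nothing particular to them. The pairs were listed with results of these data known, and no test was made.

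The comparison of vehicle-treated Tg4-42 with WT mice addressed the effect of the transgene, and it showed small differences in the secretory genes. None of the 79 genes passed an adjusted p of 0.05 in edgeR, in a comparison that called 17 of 17361 genes, or 0.0979%, with 0.0403% lower and 0.0576% higher, and DESeq2 and limma-voom also called 0 of the 79. Among the 79, 33 had a higher and 46 a lower estimate, or 58.2%, where 49.5% of all genes were lower, and the median log2 fold change was −0.015, against 0.002 over all tested genes. At an unadjusted p under 0.05, 2 were lower and 0 higher, where 1.09% and 1.65% of all genes were.

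Those 2 were the GTPases of the COPII coat, Sar1a and Sar1b. Sar1a was at 269, 350 and 286 CPM in WT mice and at 215, 218 and 251 CPM in vehicle-treated Tg4-42 mice, so that the groups did not overlap (log2 fold change −0.40, SE 0.13, edgeR adjusted p = 1). Sar1b was at 145, 197 and 150 CPM against 142, 127 and 126 CPM (−0.32, SE 0.13, adjusted p = 1), and again no transgenic mouse reached the WT range. Leaving out 1 mouse at a time moved the Sar1a estimate of Tg4-42 against WT between −0.49 and −0.28. The Sar1b estimate then lay between −0.40 and −0.165. In caffeine-treated Tg4-42 mice the values overlapped those of the vehicle-treated Tg4-42 mice, at 243, 225 and 197 CPM for Sar1a and at 133, 139 and 122 CPM for Sar1b.

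The remaining genes with the smallest p differed less. Alg8, a glucosyltransferase, was higher in every transgenic mouse, at 45.1, 42.3 and 39.0 CPM against 37.8, 33.6 and 36.5 CPM (0.23, SE 0.14). Srprb, the membrane subunit of the SRP receptor, had an estimate of 0.20 (SE 0.12) and Copg2 of −0.19 (SE 0.13), with overlapping groups. Over the 79 genes, 5 had all 3 transgenic mice below all 3 WT mice and 2 had them all above, where 3.16% and 3.57% of all genes did. The 5 were Sar1a, Sar1b, Copb1, Copg1 and Cope, and the 2 were Alg8 and Tmed1.

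By role, the 8 COPI genes all had lower estimates in Tg4-42 mice, with a median of −0.13 and none past the adjusted threshold, and this held for every tested COPI gene under the other scalings and tools. Without 1 mouse 6 to 8 of the 8 were lower, with 6 without WT replicate 2. Cope, the epsilon chain, was at 310, 306 and 331 CPM in WT mice and at 287, 292 and 274 CPM in Tg4-42 mice (−0.15, SE 0.11), and Copg1 at 388, 364 and 340 against 325, 333 and 328 CPM (−0.15, SE 0.12). The 5 oligosaccharyltransferase genes all had higher estimates, with a median of 0.08, and leaving out 1 mouse at a time moved the count of lower ones between 0 and 4. With the 7 subunits that the naming rule misses, 8 of 12 were higher and 4 lower. For the other roles the medians lay between −0.06 and 0.02.

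The comparison of caffeine with vehicle in Tg4-42 mice addressed the effect of the treatment. Caffeine-treated mice had lower values for many of these genes, and among the 8 roles the lowest median was that of the 5 genes chosen from oligosaccharyltransferase, the complex that attaches N-linked sugars. In the comparison with vehicle-treated Tg4-42 mice, 59 of 79 genes had a lower estimate, or 74.7%, against 51.5% of all genes, and the median log2 fold change was −0.17 (0.892-fold) against −0.01. One gene passed the adjusted threshold, Rpn2, in a comparison that called 0.881% of all genes with 0.668% lower and 0.213% higher. At an unadjusted p under 0.05, 24 of the 79 were lower and 1 was higher, where 9.82% and 7.15% of all genes were. In 36 of the 79 all 3 caffeine-treated mice lay below all 3 vehicle-treated mice and in 3 above, against 12.6% and 10.4% of all genes.

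The shift was present in each caffeine-treated mouse. Relative to the mean of the WT mice, the median of the 79 genes in log2(CPM + 0.5) was −0.16, −0.17 and −0.25 in caffeine-treated mice. It was −0.05, −0.03 and 0.03 in vehicle-treated Tg4-42 mice and −0.08, 0.08 and 0.00 in WT mice, so that the caffeine-treated mice lay below the other 6. This order held within lane 6, which had replicates 1 and 2, and within lane 7, which had 1 mouse of each group. The same median over all tested genes stayed between −0.01 and 0.01 in every mouse. Caffeine replicate 3 lay lowest, and without it the count at an unadjusted p under 0.05 was 11 in place of 24. Without vehicle-treated Tg4-42 replicate 3 that count was 10, and the median log2 fold change was −0.13 without the one or the other. The share of all genes at that level is not given for these reduced fits, and the 9.82% belongs to the fit of all mice.

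The summed levels of cell type markers also differed between these groups. All 14 markers of dentate granule cells were higher and 3 of them, Bcl11b, Plk5 and Stxbp6, were called, and their summed level was 1555 to 1908 CPM with caffeine, against 840 to 1329 CPM in vehicle-treated Tg4-42 and 997 to 1294 CPM in WT mice. The 13 markers of CA pyramidal cells summed to 1078 to 1294 CPM with caffeine, against 1490 to 1783 CPM and 1527 to 1799 CPM, with 7 lower, 6 higher and a median log2 fold change of −0.04. Dkk3 was called as lower (−0.71, adjusted p = 0.0499) and took the largest share of this sum, and the remaining 12 summed to 638 to 662 CPM with caffeine, against 692.5 to 845 and 769.5 to 912 CPM. At an unadjusted p under 0.05, 4 of the 13 were lower: Dkk3, Wfs1 (−0.56), Tyro3 (−0.60) and Mpped1 (−0.41). At that level 2 were higher, Iyd (0.91) and Pou3f1 (0.70), and apart from Dkk3 none passed the adjusted threshold. Against WT mice the 1 called of the 13 was Wfs1 (−0.77, edgeR adjusted p = 0.041). The 12 general neuronal markers summed to 7165 to 8488 CPM against 8177 to 9936 CPM and 8729 to 8937 CPM, with 8 lower and 0 called. In bulk samples fewer cells of a type and less RNA per cell cannot be told apart.

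Glial markers had mostly lower estimates with caffeine, and against vehicle-treated Tg4-42 mice the groups did not overlap for the sum of microglial markers. The 10 microglial markers, all lower, summed to 50.4 to 60.4 CPM with caffeine against 64.1 to 92.5 CPM with vehicle, the 10 oligodendrocyte markers, 9 lower, to 267.5 to 380.3 against 377 to 523 CPM, and the 10 astrocyte markers, 9 lower, to 354 to 477 against 447 to 577 CPM. In WT mice these sums were 57.4 to 85.9, 342 to 500.2 and 445.5 to 583 CPM, and all 3 overlapped the caffeine range. None of these was called, and at an unadjusted p under 0.05 there were 4 microglial, 4 oligodendrocyte and 5 astrocyte markers lower. The 8 endothelial markers summed to 3.38 to 6.43 against 4.54 to 5.54 CPM, and 2 of them passed the filter. One endothelial marker was at 0 in all 3 WT mice, and no other marker of any of these cell types was at 0 in a whole group. The part of these cell types in the lower values of the secretory genes was not tested.

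**Figure D3:**
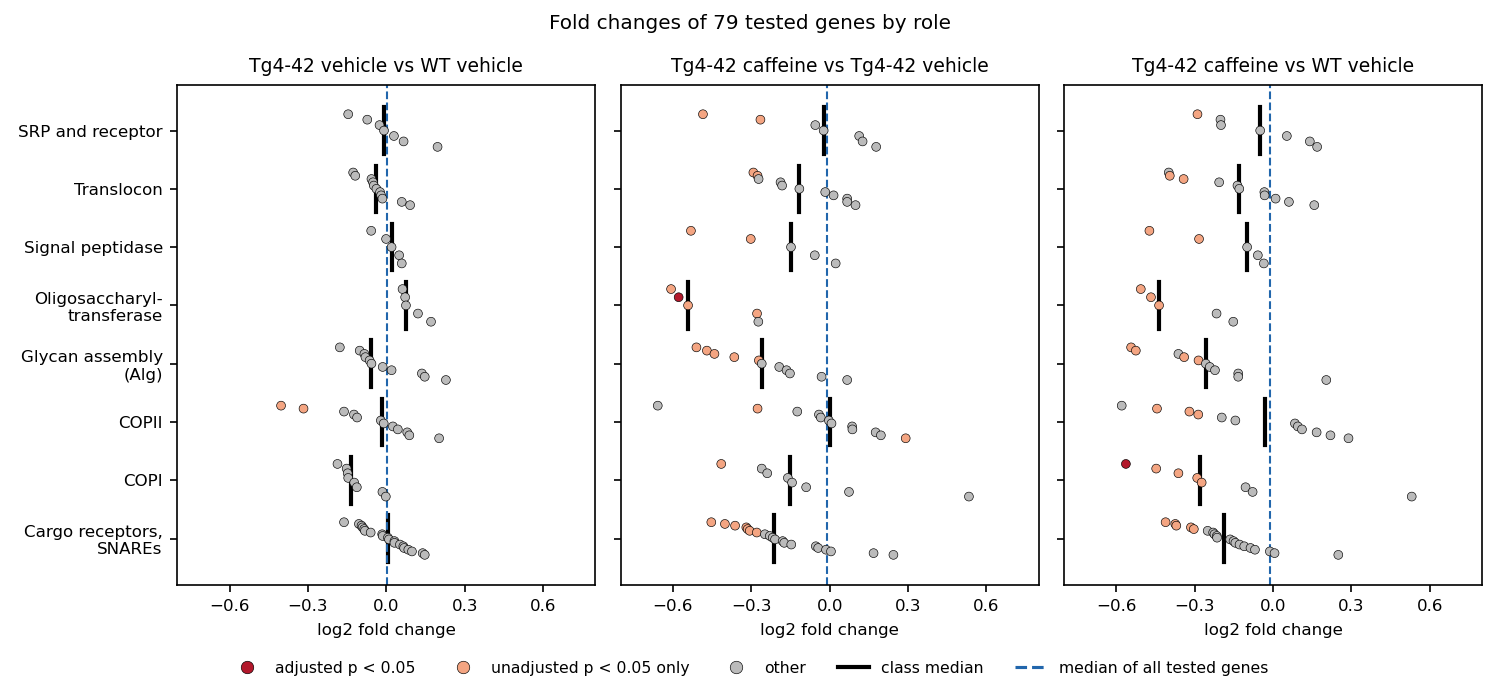
Log2 fold changes of the 79 tested genes by role in each of the 3 comparisons, which share groups of mice. Each point is a gene, coloured by its edgeR p, thick lines are the medians of the roles and dashed lines the median of all tested genes. With caffeine the 5 oligosaccharyltransferase genes all lie left of the dashed line, with a median of −0.54, and COPII genes lie on both sides of it.

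Among the signal recognition particle and its receptor, 4 of 7 genes had lower estimates with caffeine and the median was −0.02, which under the other scalings and tools lay between −0.04 and 0.00. The receptor genes had the lowest estimates. Srprb was at 61.6, 64.4 and 72.4 CPM with vehicle and at 50.6, 45.1 and 46.0 CPM with caffeine, in mice that did not overlap (−0.49, SE 0.13, edgeR adjusted p = 0.077). Srpr, the subunit that contacts the particle, was at 109, 122 and 118 CPM against 99.0, 98.5 and 92.6 CPM (−0.27, SE 0.12). The particle itself had estimates from −0.06 for Srp68 to 0.18 for Srp9. Srprb shares 20.7% of its exon bases with an overlapping gene on the same strand, Gm20425, and the counts there cannot be assigned to one of them with certainty.

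The translocon genes had a median of −0.12, with 7 of 11 lower. Sec62, which admits proteins after their translation, was at 242, 215 and 242 CPM with vehicle and at 202, 209 and 161 CPM with caffeine (−0.29, SE 0.13). Ssr3 of the translocon-associated complex was at 156, 175 and 182 CPM against 149, 142 and 132 CPM (−0.28, SE 0.12). In both genes every caffeine-treated mouse was below every vehicle-treated mouse, and neither passed the adjusted threshold. The subunits of the channel had estimates of −0.27 (SE 0.19) for Sec61g, −0.12 for Sec61a1, −0.02 for Sec61a2 and 0.10 for Sec61b, and their groups overlapped. The antisense gene 4933429H19Rik overlaps 11.7% of the exon bases of Sec62, and the counts there cannot be assigned with certainty.

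For signal peptidase, 4 of 5 genes were lower with a median of −0.15. Spcs3, an accessory subunit, was at 211, 237 and 298 CPM with vehicle and at 203, 181 and 133 CPM with caffeine (−0.53, SE 0.17), and Spcs1 at 138, 137 and 132 against 120, 117 and 92.6 CPM (−0.30, SE 0.13). In both the groups did not overlap, and an antisense gene, Glt8d1, overlaps 16.3% of the exon bases of Spcs1. The catalytic subunits Sec11a and Sec11c were at −0.06 and 0.02. Whether accessory and catalytic subunits differed was not tested.

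The 5 genes of oligosaccharyltransferase that the naming rule holds had the lowest median of the 8 roles, −0.54, and all 5 were lower, 4 of them at an unadjusted p under 0.05. The rule misses 7 further subunits, which had a median of 0.00, with Ostc at −0.33, Tusc3 at −0.30, Dad1 at −0.21, Magt1 at 0.00, Krtcap2 at 0.06, Tmem258 at 0.07 and Ost4 at 0.12. Over all 12 subunits the median was −0.28, with 9 lower and 3 higher. Relative to the WT mean the 5 genes had a median in log2(CPM + 0.5) of −0.24, −0.40 and −0.61 in the caffeine-treated mice, and of −0.04, 0.13 and 0.18 in the vehicle-treated Tg4-42 mice. The WT mice themselves lay at −0.17, 0.11 and 0.19, so that WT replicate 1 came close to the highest caffeine-treated mouse. Rpn2, which encodes ribophorin II (chromosome 2, 157279017 to 157326319, plus strand, GRCm38), was at 278, 316 and 317 CPM in vehicle-treated Tg4-42 mice and at 257, 311 and 298 CPM in WT mice. In caffeine-treated mice it was at 217, 205 and 189 CPM, below all other mice. It fell by 0.58 on the log2 scale (SE 0.12, 0.67-fold, edgeR adjusted p = 0.043).

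The call of Rpn2 stands near the threshold. With sequencing lane as a covariate the estimate was the same, −0.58, and the adjusted p was 0.067. Without 1 mouse the estimate lay between −0.64 and −0.53, and the adjusted p was 0.037 without caffeine replicate 1. It was 0.093 without caffeine replicate 2, 0.287 without caffeine replicate 3, and 0.077, 0.076 and 0.242 without vehicle replicates 1, 2 and 3. An antisense gene, Mroh8, overlaps 5.46% of the exon bases of Rpn2.

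Rpn1, which encodes ribophorin I, was at 430, 517 and 498 CPM with vehicle and at 356, 319 and 274 CPM with caffeine (−0.61, SE 0.16, adjusted p = 0.089). Here WT replicate 1 lay within the caffeine range, as the WT mice were at 314, 492 and 477 CPM. Stt3a, a catalytic subunit, was at 109, 104 and 138 CPM against 96.7, 77.9 and 65.9 CPM (−0.54, SE 0.15, adjusted p = 0.092), and the groups did not overlap. Stt3b was at 141, 159 and 158 against 129, 127 and 123 CPM (−0.28, SE 0.13). Ddost was at 222, 309 and 276 against 206, 244 and 218 CPM (−0.27, SE 0.17) and was the only one of the 5 whose groups overlapped.

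**Figure D4:**
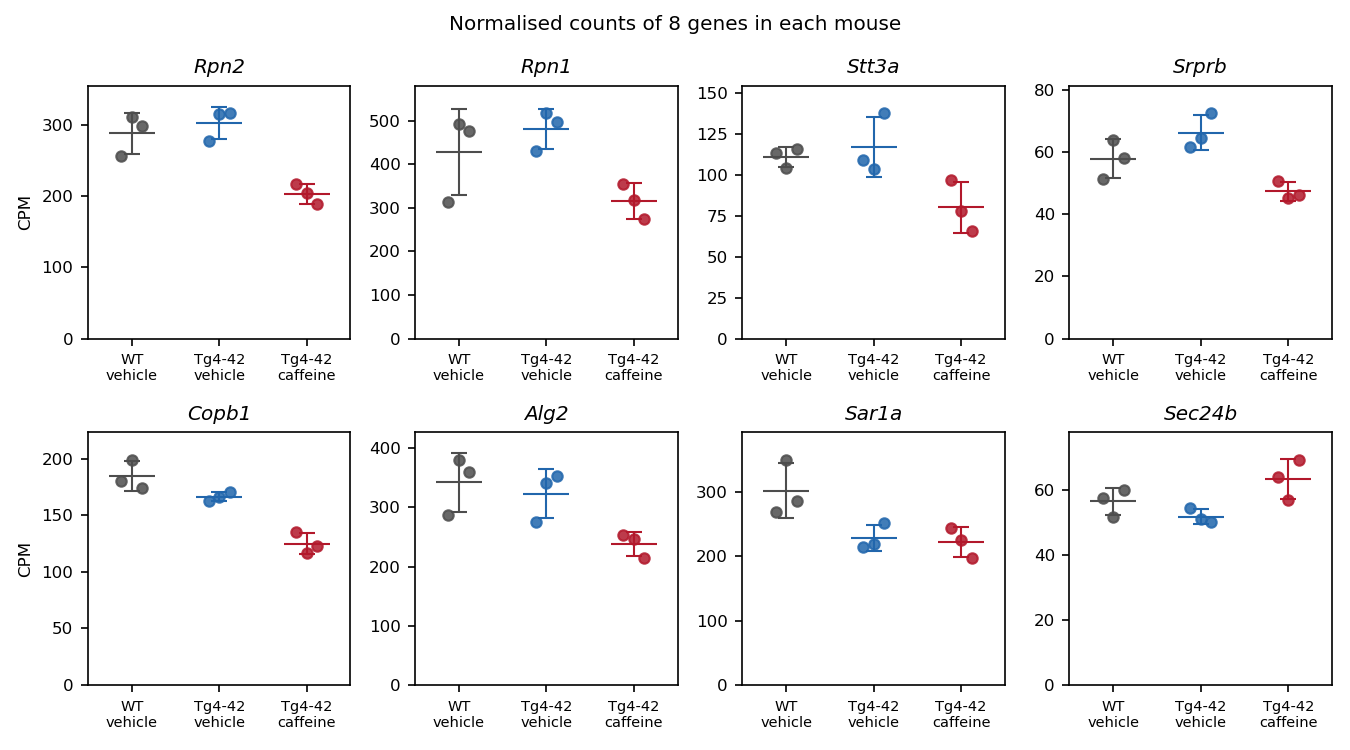
Normalised counts (CPM) of 8 genes in each mouse, with group means and SD (bars, n = 3). In Rpn2 the caffeine-treated mice (red) lie below all vehicle-treated WT (grey) and Tg4-42 mice (blue), in Sar1a both transgenic groups lie below the WT mice, and in Sec24b the caffeine-treated mice lie above the vehicle-treated Tg4-42 mice.

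The Alg enzymes, which assemble the sugar tree that oligosaccharyltransferase transfers, had a median of −0.26 with 10 of 11 lower. Alg12 was at 19.8, 16.9 and 22.9 CPM with vehicle and at 15.2, 13.7 and 12.9 CPM with caffeine (−0.51, SE 0.18). Alg8 was at 45.1, 42.3 and 39.0 against 29.8, 35.2 and 26.2 CPM (−0.47, SE 0.14), and Alg2 at 276, 341 and 352 against 253, 247 and 214 CPM (−0.44, SE 0.14). Alg11, a mannosyltransferase, was at 124, 129 and 150 against 110, 117 and 86.3 CPM (−0.37, SE 0.13). Alg5 followed with −0.27, and in all 5 the groups did not overlap, while none passed the adjusted threshold. Alg13, a partner in the second sugar step, had the single higher estimate (0.07, SE 0.18).

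The COPII coat was split, with 6 genes higher, 6 lower and a median of 0.00. The single gene of the 79 that was higher at an unadjusted p under 0.05 belonged to it: Sec24b, a cargo-binding coat subunit, was at 54.4, 51.3 and 50.1 CPM with vehicle and at 64.1, 57.0 and 69.5 CPM with caffeine (0.29, SE 0.12, adjusted p = 0.234). Sec23b was at 86.0, 84.3 and 92.7 against 82.0, 64.6 and 70.6 CPM (−0.28, SE 0.13). Sec16b had the lowest estimate, −0.66 (SE 0.51), from values of 2.16, 1.80 and 3.53 CPM with vehicle and 2.50, 1.45 and 0.769 CPM with caffeine, which overlapped. Under the other tools and scalings 4 to 7 of the 12 genes were lower and the median lay between −0.02 and 0.03.

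COPI genes had a median of −0.15 with 6 of 8 lower. Copb1, the beta chain (chromosome 7, 114215559 to 114254711, minus strand, GRCm38), was at 162, 167 and 171 CPM with vehicle and at 135, 117 and 123 CPM with caffeine (−0.41, SE 0.11, adjusted p = 0.090). All caffeine-treated mice were below all vehicle-treated mice in 5 of the 8 genes, where they were in 12.6% of all genes. Copz2 had the highest estimate of the 79 genes, 0.53 (SE 0.40). Its values were 0.974, 2.12 and 1.61 CPM with vehicle and 1.25, 2.28 and 3.46 CPM with caffeine, which overlapped.

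The cargo receptors and SNAREs had a median of −0.21, with 17 of 20 lower. In 13 of them all caffeine-treated mice lay below all vehicle-treated mice, where 12.6% of all genes did. In 1, Tmed8 (0.17), they all lay above, where 10.4% of all genes did. Among the p24 family Tmed3 was at 67.2, 57.8 and 73.6 CPM with vehicle and at 52.8, 48.1 and 44.1 CPM with caffeine (−0.45, SE 0.13). Tmed5 was at 81.4, 72.8 and 76.2 against 64.3, 60.6 and 49.4 CPM (−0.40, SE 0.13), and Tmed10 at 72.3, 64.9 and 76.7 against 57.6, 55.8 and 53.0 CPM (−0.36, SE 0.11). In all 3 the groups did not overlap, while Tmed2 had a higher estimate of 0.24 (SE 0.23). The lectin Lman2 and the intermediate compartment proteins Ergic1, Ergic3 and Ergic2 had estimates between −0.32 and −0.28, each at an unadjusted p under 0.05. Kdelr1 and Kdelr2, which return escaped ER proteins, were at −0.21 and −0.01, and no gene of this role passed the adjusted threshold.

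**Figure D5:**
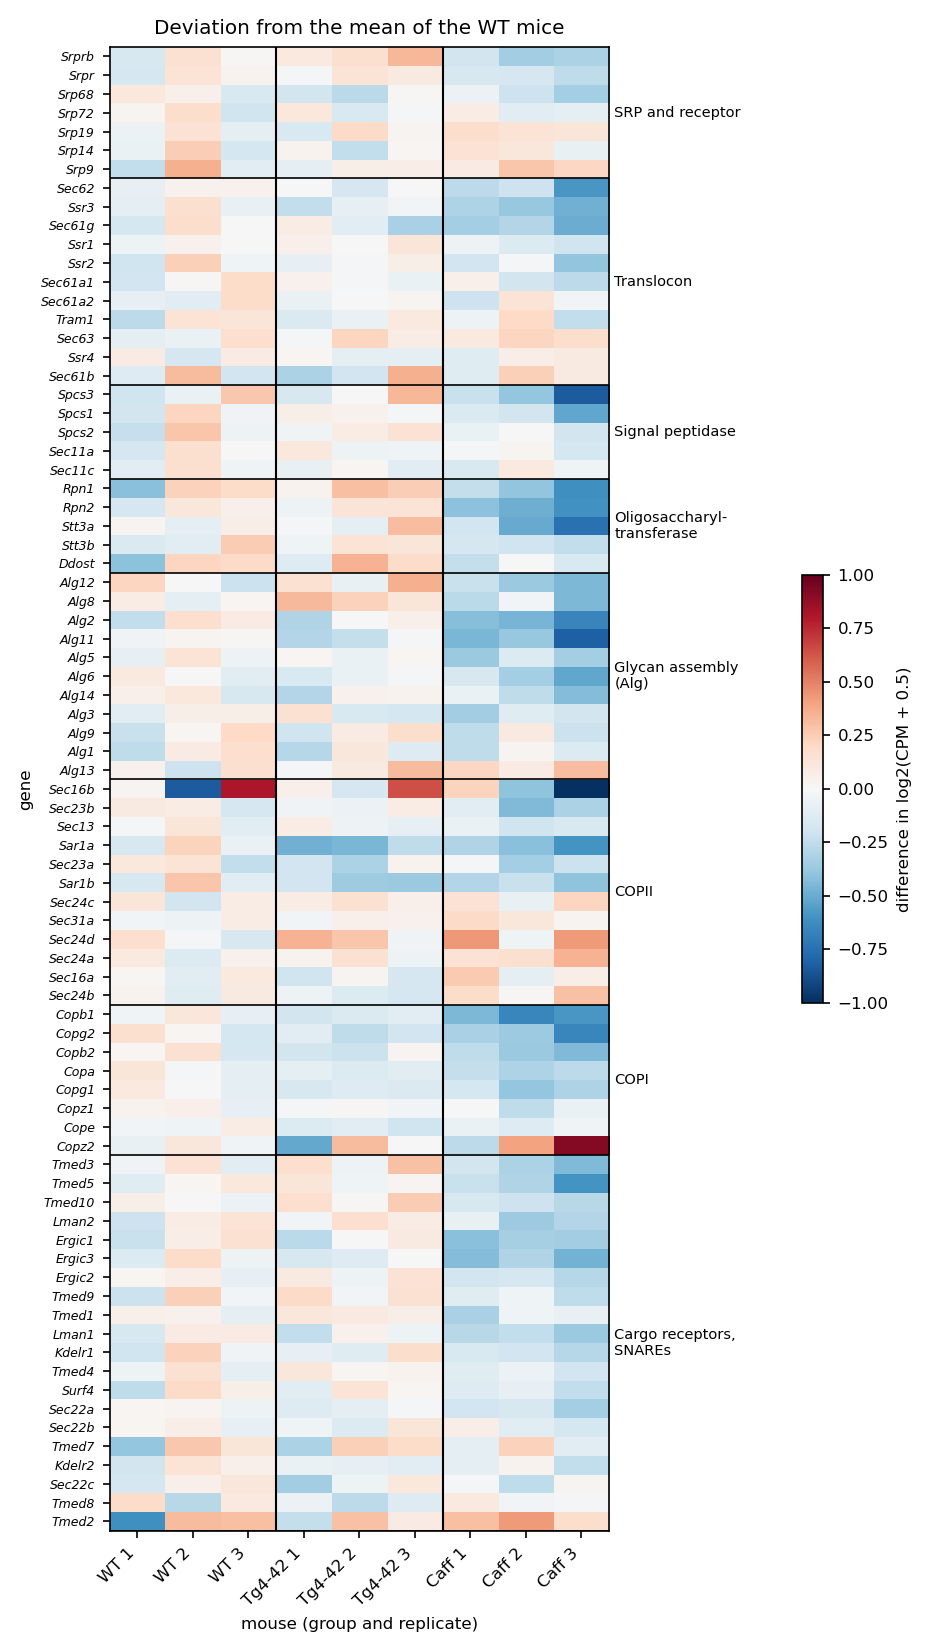
Difference of each gene in each mouse from the mean of the WT mice in log2(CPM + 0.5), for the 79 tested genes, ordered by role and within it by the caffeine estimate. Blue is lower and red higher than the WT mean. Colours end at ±1. The caffeine columns are blue in most oligosaccharyltransferase, Alg, COPI and cargo receptor rows, and the COPII rows hold both colours.

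Compared with vehicle-treated WT mice, caffeine-treated Tg4-42 mice had lower estimates for 63 of the 79 genes, or 79.8%, where 51.5% of all genes were lower, and a median of −0.20 against −0.01. This comparison uses the same caffeine-treated mice as the one before it and is not independent of it. One gene passed the adjusted threshold where 0.415% of all genes were called, 0.271% as lower and 0.144% as higher. That gene was Copb1, which was at 180, 199 and 174 CPM in WT mice and at 135, 117 and 123 CPM in caffeine-treated mice. It fell by 0.56 on the log2 scale (SE 0.11, 0.677-fold, edgeR adjusted p = 0.041), with no overlap.

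At an unadjusted p under 0.05, 25 of the 79 were lower and 0 higher, where 8.65% and 6.78% of all genes were, and 30 had all caffeine-treated mice below all WT mice, where 9.67% did. Sec24a was the 1 gene with all caffeine-treated mice above all WT mice (0.22, SE 0.12), where 9.14% of all genes were. COPI had 5 of those 25, with a median of −0.28. Alg11 was at 148, 155 and 153 CPM against 110, 117 and 86.3 CPM (−0.54, SE 0.13, adjusted p = 0.076) and Rpn2 had an estimate of −0.51 (SE 0.12, adjusted p = 0.076). Alg2 with −0.53 (SE 0.14) and Copg2 with −0.45 (SE 0.13) followed, and Copg2 is overlapped by the antisense gene Mest over 17.8% of its exon bases. Without caffeine replicate 3, 11 of the 79 were lower at an unadjusted p under 0.05. The share of all genes is not given for that fit, and the 8.65% belongs to the fit of all mice.

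The call of Copb1 was also near the threshold. Its adjusted p was 0.055 in a fit of only the 2 groups compared, 0.055 with replicate number as a block and 0.073 with sequencing lane as a covariate. Without 1 mouse the estimate lay between −0.63 and −0.50 with an adjusted p of 0.030 without caffeine replicate 1, and of 0.126 and 0.288 without caffeine replicates 2 and 3. Without WT replicates 1, 2 and 3 it was 0.063, 0.123 and 0.075.

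Lists of neighbouring machinery were counted in the same way for caffeine against vehicle in Tg4-42 mice. In that comparison 51.5% of all genes had a lower estimate and 0.881% were called. Of 24 genes for dolichol, sugar precursors and glycan trimming, 20 were lower and 2 passed the adjusted threshold, both lectin chaperones that hold newly glycosylated proteins. Calr, encoding calreticulin, was at 887, 831 and 886 CPM with vehicle and at 537, 485 and 458 CPM with caffeine, and fell by 0.82 on the log2 scale (SE 0.13, adjusted p = 0.021). Its WT values were 575, 679 and 698 CPM, between those of the transgenic groups, and the estimate of Tg4-42 against WT was 0.42 (SE 0.13, adjusted p = 1). Canx, encoding calnexin, was at 766, 882 and 1017 CPM against 618, 590 and 503 CPM and fell by 0.64 (SE 0.14, adjusted p = 0.046).

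The list of 17 genes for the ER membrane complex and tail-anchor insertion had 12 lower and 1 called. Emc1 was at 242, 263 and 270 CPM with vehicle and at 198, 151 and 161 CPM with caffeine, and fell by 0.60 (SE 0.12, adjusted p = 0.040). Emc3 had the next smallest p, with −0.42 (SE 0.13, adjusted p = 0.113). Against WT mice, Emc1 was again called (−0.60, adjusted p = 0.048).

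Partners of the same complexes whose symbols the naming rule misses, 14 tested of 16, had 8 lower and 0 called. Tram1l1, a relative of the translocating chain protein, was at −0.56 (SE 0.13, adjusted p = 0.056) and Ostc at −0.33 (SE 0.12). Arcn1, the delta chain of COPI, was at 0.11. The 2 not tested were Srp54a and Lman1l. Of 32 coat GTPases, tethers and SNAREs, 16 were lower and 16 higher and 0 were called, with Arf5 at 0.50 (SE 0.19) and Yif1b at −0.37 (SE 0.14). Of 11 tested regulators, such as Xbp1, Atf6 and the CREB3 family, 7 were lower and 0 called, and Creb3l4 was not tested. Mbtps1, a protease that activates several of them, was at −0.20 (SE 0.11). Creb3 itself was at 150, 143 and 168 CPM with vehicle and at 119, 135 and 105 CPM with caffeine (−0.36, SE 0.12, adjusted p = 0.155). The 3 lists with 0 calls were also counted at an unadjusted p under 0.05. There were 2 lower among the partners, or 14.3%, and 1 lower among the regulators, or 9.09%. Among the GTPases and tethers 3 were lower, or 9.38%, and 2 higher, or 6.25%. Of all genes 9.82% were lower and 7.15% higher, so that these lists lay near the shares of all genes.

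The motif matches were also counted by response to caffeine. Of the 24 genes that were lower at an unadjusted p under 0.05, 21 had a promoter in the RefSeq table, and 4 of them, or 19%, held the GASE core, against 14 of the 45 other tested genes, or 31.1%. The UPRE was found in 1 of 21 and in 4 of 45. CCAAT was held by 61.9% and 42.2%. The split uses measured values and carries no test.

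Length and composition of these genes were also compared with the rest. The median exon length was 4287 bases against 3920 for all tested genes, and the median GC content of the transcripts was 48.1% against 48.6%.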

How the data were processed

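Nuclei of frozen hippocampi were stained for NeuN, sorted, and sequenced as single-end 50-base reads after SMART-Seq v4 and Nextera XT library preparation. The authors mapped the reads to mm10 with STAR and deposited exon counts per gene from featureCounts, as whole raw counts without normalisation; tool versions, annotation and strand setting are not given in the sources used here. The labels state 6 mice per group for the nuclei and the study's methods 3, and 3 libraries per group were used; that they are separate mice follows from the methods.

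Symbols came from GENCODE M21 for 48349 of 48709 gene identifiers and 360 were left without one. Genes were filtered with filterByExpr (minimum count 10, total 15), scaled by TMM and tested with the quasi-likelihood test of edgeR 4.0.16 (R 4.3.3, robust, all 9 libraries in 1 fit, Benjamini-Hochberg over 17361 genes, threshold 0.05), which was tested on simulated data. DESeq2 1.42.0, used by the study, and limma 3.58.1 served as alternatives. CPM used TMM-scaled totals and TPM the union exon length. Library totals of 9342945 to 16376922 counts place 3 counts at 0.190 to 0.325 CPM; such limits cover counting error only. Replicates of a group differed by more than counting error (chi-square of 8.76 to 20.6 for each gene). The p-values set a difference between groups against the spread between these libraries. Replicate numbers were given in accession order, so that the main fit has no replicate block.

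The genes, roles, lists, pairs and motifs were chosen with earlier results of these data known. Named genes were those called, the 5 smallest p per comparison, the extremes of each role in caffeine estimate and WT level, genes that failed the filter, and in other lists the called and the 2 smallest p in the caffeine comparison; further genes were named after their values were seen. Promoters were those of RefSeq (GRCm38.p6), with the start nearest to the GENCODE one where a gene had several. Shared 50-base stretches were counted over GENCODE M21 transcripts.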

Additional observations from a re-analysis of the deposited data

How the results depend on the processing

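Neither Rpn2 nor Copb1 changed direction under the 11 alternatives or without 1 mouse. In the Tg4-42 against WT comparison 0 of the secretory genes were called throughout, and their median ran from −0.06 to 0.02 without 1 mouse. For caffeine against vehicle, the number called, 1 in the report, was 7 with DESeq2, 4 without a filter, 2 with only the 2 groups compared, 5 with limma-voom and 0 with lane as a covariate. It ranged from 0 to 2 without 1 mouse, and the median from −0.19 to −0.13. For caffeine-treated Tg4-42 against WT mice, 1 in the report became 8 with DESeq2, 6 without a filter, 0 with only the 2 groups, 0 with lane, and 2 after GC correction and 2 with thinned libraries. It ranged from 0 to 1 without 1 mouse, and the median from −0.23 to −0.13, the latter without WT replicate 2. Over all genes this comparison called 72 in the report, and totals under the other settings are not given for it. The larger counts of secretory genes can therefore not be set against a share of all genes. With replicate number as a block the number called was 0 in this comparison, 1 for caffeine and 0 for genotype; same-number correlations were 0.23, 0.14 and 0.16 in the genotype comparison, where every mouse correlated best with its own number, 0.16, 0.19 and −0.20 for caffeine, and −0.17, 0.01 and −0.10 against WT. This is a hint from the data for the vehicle groups, and the labels give no pairing. Over all genes the caffeine comparison called 740 with DESeq2, 987 without a filter, 618 with limma-voom, 9 with lane and 0 without caffeine or Tg4-42 vehicle replicate 3, in place of 153. After GC correction 91 of 257 calls were higher, in place of 37 of 153. The causes of these shifts were not tested. With 3 mice per group and 9342945 to 16376922 counts per library, many estimates fall near the adjusted threshold.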
